A study of Mus musculus with 2 samples.

Results

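The loops described here lie at Myc and Pvt1, in a window of mouse chromosome 15 from 61.5 to 64.5 Mb (mm10), and were chosen by their listed positions: every loop with an anchor in the window or a span over it. Hi-C, in which neighbouring stretches of fixed chromatin are cut, ligated and sequenced as pairs, was done on 2 replicates of HPC5, a haematopoietic progenitor line derived from mouse bone marrow and of wild-type Etv6 genotype (Etv6+/+). No mutant or treated sample is part of these data, and whether the replicates came from separate cultures is not stated. Each replicate has a loop list at a medium setting, a shorter one at a high setting, and a domain list. At the medium setting the window held 9 of the 5729 loops of replicate 2 and 0 of the 1276 loops of replicate 1. At the high setting it held 4 of 3354 and 0 of 202. The lists carry no read or contact totals, so their depth is unknown.

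Myc encodes a basic helix-loop-helix leucine zipper transcription factor that binds DNA together with Max and drives growth and division. Blood stem and progenitor cells depend on a cluster of enhancers far downstream of the gene, whose published distance is about 1.7 Mb, and Myc expression falls in these cells when the cluster is deleted. Pvt1 is a long non-coding RNA gene next to Myc, known from retroviral insertions and chromosome translocations in lymphoid tumours. A Hi-C loop is a pair of short stretches, its anchors, that a caller listed as touching more often than their surroundings.

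Myc occupies 61985341 to 61990361 and Pvt1, whose nearer end lies 47.6 kb to the right of Myc, 62037986 to 62260215. Both are read from left to right, so right of Myc is downstream. Myc had an end in an anchor of 4 loops, all in replicate 2 and all running to the right. Pvt1 had an end in an anchor of 1 of these 4. The other 5 loops of the window touched neither gene. For background, 22.5% of 21521 protein-coding genes were at an anchor of either medium list. With a loop counted once in each replicate, 0.386% (83 genes) had 4 or more loops, while the 4 of Myc are separate loops of replicate 2. Since the genes were chosen for these loops, no test was made.

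The longest Myc loop joined 61980001 to 61989999, a 10 kb anchor with the left end of Myc, to 63720001 to 63729999, over 1740 kb. The next joined the same Myc anchor to 63650001 to 63659999, over 1670 kb. The right end of Myc lay 362 bases beyond this anchor, which held the rest of the gene. Both loops were listed at both settings, as were all 4 window loops on 10 kb anchors. The shorter loops came from a wider anchor, 61975001 to 61999999, which held all of Myc, and were listed at the medium setting alone. That held for all 5 window loops on 25 kb anchors. Setting and anchor width thus cannot be told apart in the window, and the setting is not read as a measure of strength. One of 275 kb ended at 62250001 to 62274999, which held the right, downstream end of Pvt1. The other, of 400 kb, ended at 62375001 to 62399999, a stretch 115 kb beyond Pvt1 with no annotated gene. All 4 Myc loops therefore enclosed the whole of Pvt1, 222 kb long, and none had an anchor at its start.

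**Figure D1:**
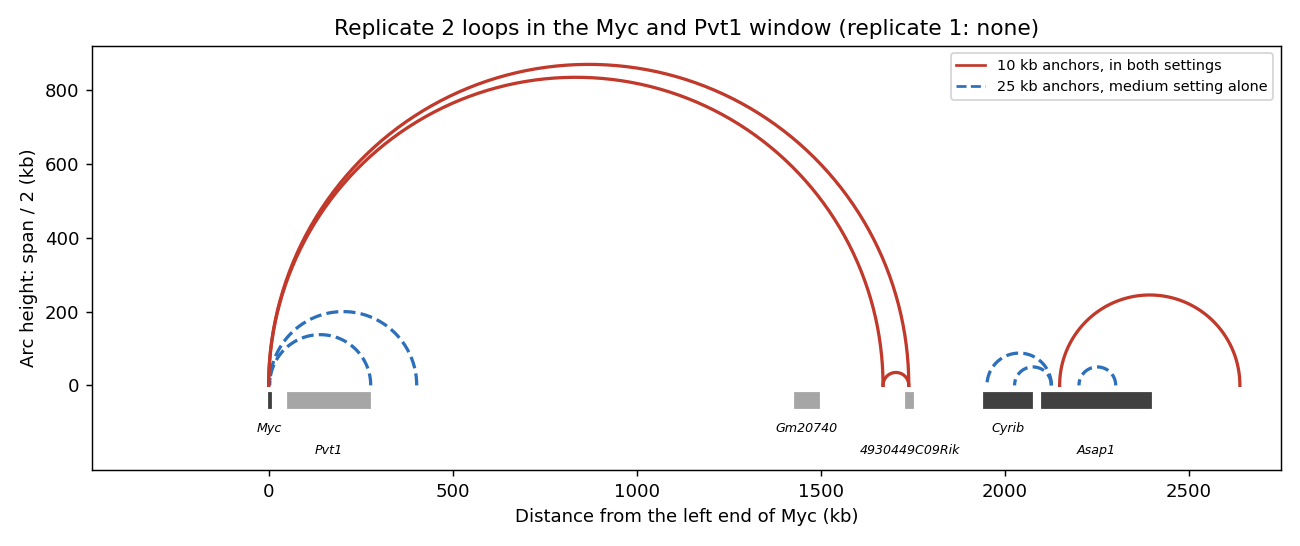
Replicate 2 loops of the window as arcs against distance from the left end of Myc (kb). Arc height grows with span, colour and line give anchor width and setting, dark boxes are protein-coding genes and light boxes other genes. The pair of arcs at 1670 and 1740 kb leave Myc, and a small arc of 70 kb joins their far feet.

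The far anchors of the long loops lay within 0.1 Mb of the published distance of the blood enhancer cluster. Measured from the left end of Myc, the nearer ran from 1665 to 1675 kb and the farther from 1735 to 1745 kb. Both were thus within 50 kb of 1.7 Mb. The anchors of the shorter Myc loops, centred at 277 and 402 kb, were far from it. The published position is used here only to about 0.1 Mb, so smaller offsets, and the side on which an anchor lies, are not read. The modules inside the cluster were not placed. The lists hold no measure of enhancer activity, so an anchor at this distance is a matter of position alone.

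The 2 far anchors were also joined to each other. The loop between them, of 70 kb, linked 63650001 to 63659999 and 63720001 to 63729999 and was listed at both settings. With the long loops it formed a closed triangle, in which each of 3 anchors was listed with both others. Replicate 2 held 22 such triangles on identical anchors, made of 1.15% of its loops, and 7.01% of the 941 pairs of loops that share an anchor were closed in this way. In 3 triangles the outermost loop was 1000 kb or longer, and the Myc triangle ranked second of the 22 by that span. A longer one, with an outer span of 1810 kb on chromosome 13, held no protein-coding gene end at its anchors. A shorter one, with an outer span of 1725 kb, was on 25 kb anchors of chromosome 13, with histone genes at 2 of its 3 anchors. None of the 9 loops in these 3 triangles had a partner in replicate 1.

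Little is annotated at the far anchors. The nearer, 63650001 to 63659999, held no gene: the pseudogene Gm5473 ended 17.5 kb to its left, and the next gene to the right, 58.3 kb away, was the long non-coding RNA gene 4930449C09Rik. The farther lay entirely inside 4930449C09Rik (63718348 to 63737636), whose left end was 1.65 kb outside the anchor. The gasdermin C genes, which encode pore-forming proteins of the gasdermin family, follow on the right. Gsdmc, Gsdmc2, Gsdmc3 and Gsdmc4 lie between 1791 and 1927 kb from Myc, and none had any part in an anchor.

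The promoter of 4930449C09Rik is shown because it is the annotated start nearest to the far anchor. It is the plus-strand sequence before that start, chr15:63718098-63718347 (GRCm38.p6, RefSeq), 250 bases, and capitals mark a match to a motif.
4930449C09Rik: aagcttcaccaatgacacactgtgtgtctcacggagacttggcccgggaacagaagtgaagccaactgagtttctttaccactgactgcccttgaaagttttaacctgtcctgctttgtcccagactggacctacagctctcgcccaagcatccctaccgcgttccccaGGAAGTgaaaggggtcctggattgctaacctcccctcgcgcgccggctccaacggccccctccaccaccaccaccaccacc

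On either strand the sequence held 1 match to GGAAGT, letters of the ETS family motif, which 19.7% of 32851 promoter windows of the same length hold. It held no match to AGATAA of GATA factors (9.99% of windows), TGTGGT of RUNX factors (14%) or the E-box CACGTG (6.02%). These motifs do not overlap here, and a match is a description of letters and not of binding.

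**Figure D2:**
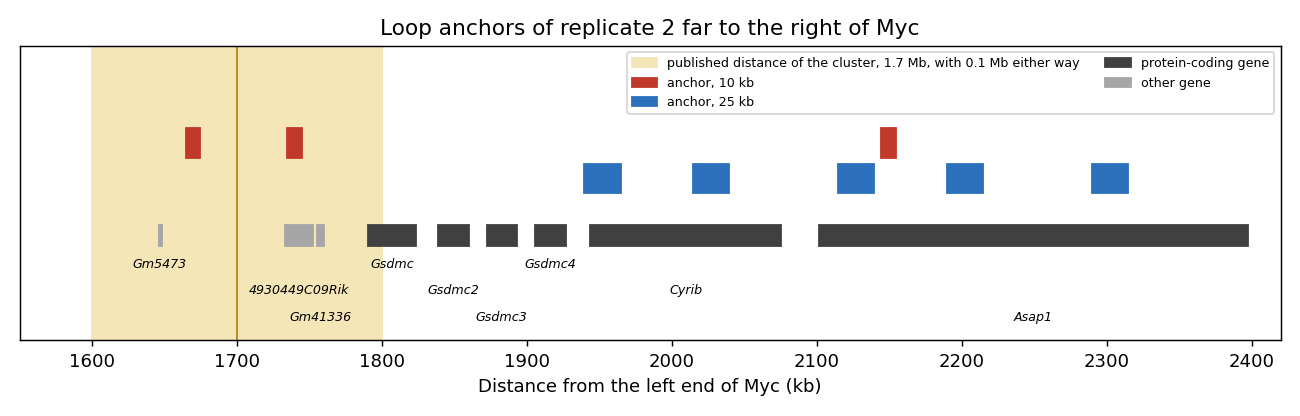
Loop anchors (upper boxes, by width) and a choice of genes (lower boxes) by distance from the left end of Myc (kb), with the published distance of the enhancer cluster, 1.7 Mb, and 0.1 Mb either way shaded. The 10 kb anchors at 1665 to 1675 and 1735 to 1745 kb lie inside the shaded band, and all others shown lie to its right.

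Between the Myc end and the far end lay a long stretch without anchors. From 62399999 to 63650001, 1250 kb, replicate 2 listed no anchor at all. Both long loops enclosed 14 annotated genes, of which Myc was the only protein-coding one. The others included Pvt1, the Macroh2a3 transcribed pseudogene inside its bounds, and the long non-coding RNA genes Gm41333, Gm30159 and Gm20740. To the left of Myc the next anchor ended at 61099999, which is 875 kb from the Myc anchor. The long non-coding RNA gene D030024E09Rik and the pseudogenes Gm18154 and Gm18788 in that stretch were inside no loop.

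The numbers attached to the loops placed the long Myc loops in the ordinary range for their span. The whole number tagged n, which the files do not define, falls with span and grows with anchor width. The 1740 kb loop had n = 20 and the 1670 kb loop n = 19. Replicate 2 loops on 10 kb anchors had a median n of 29, while the 9 of them that spanned 1600 kb or more had values of 14 to 41 with a median of 19. The long Myc loops are 2 of those 9. The 70 kb loop between the far anchors had n = 39, against a median of 35 for the 445 loops on 10 kb anchors within 20% of its span. On 25 kb anchors the Myc to Pvt1 loop had n = 68 and the 400 kb loop n = 52, against medians of 57 and 47 at similar spans.

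The value tagged qBL, also undefined, was comparatively high for the long Myc loops. It was 0.00562 for the 1740 kb loop, 0.00193 for the 1670 kb loop and 0.00384 for the loop between the far anchors, against a median of 4.36e-05 over the 2368 replicate 2 loops on 10 kb anchors. Among the 18 loops of 1000 kb or more on such anchors the median was 1.56e-06, and only 2, the 1740 kb Myc loop included, were at 0.00562 or above. With the 1670 kb loop counted, 3 of 18 were at 0.00193 or above. The Myc to Pvt1 loop had 2.35e-06, close to the median of 1.84e-06 for 25 kb anchors, and the 400 kb loop 0.000264.

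**Figure D3:**
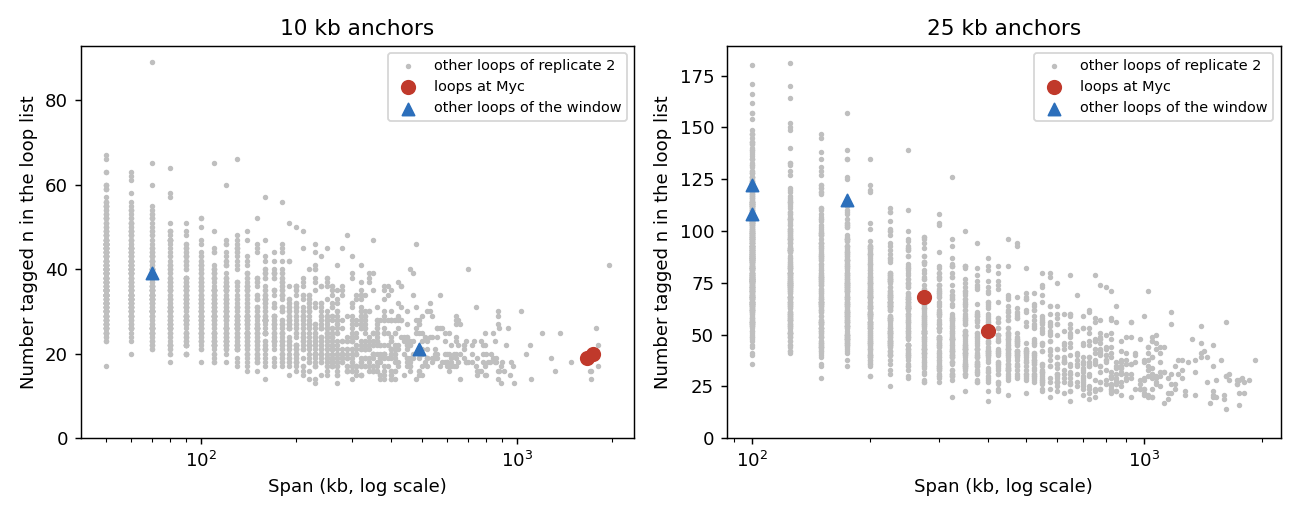
The number tagged n (vertical) against span in kb (log scale) for replicate 2 loops on 10 kb anchors (left) and 25 kb anchors (right). Red circles are loops at Myc, blue triangles the other loops of the window and grey points all other loops. The Myc loops at 1670 and 1740 kb, with n of 19 and 20, sit at the far right among few others.

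Loops of this length were rare at both settings. Of the 9 window loops 2, or 22.2% (95% Wilson interval 6.32 to 54.7%), spanned 1000 kb or more, and over all replicate 2 loops 2.18% did. The interval treats loops as independent, which these 2, sharing the Myc anchor, are not. At the high setting the background was 0.537%, which is 18 of 3354 loops, all of them on 10 kb anchors. They are the same 18 that the medium list held on this width, so the high setting gives no second measure of rarity. Of these 18, 6 had a protein-coding gene end at an anchor. These were the 2 Myc loops, 2 loops of 1070 and 1280 kb from Bcl6, which encodes a transcriptional repressor, 1 of 1780 kb at Styk1 and 1 of 1960 kb at Zfp982. Only 13 loops of replicate 2 were as long as the 1740 kb Myc loop, itself included. Of the 233 distinct anchors of replicate 2 loops of at least 1000 kb, 15, or 6.44%, had more than 1 such loop, and the 10 kb Myc anchor was among them. The window was chosen with these loops known, so the shares describe it and do not test it.

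Few genes had such a set of loops. In both medium lists together, 18 protein-coding genes, 0.0836% of all, had 2 or more loops of 1000 kb or more, counting a loop once in each replicate. Of these, 11 were histone genes at 2 shared anchors of chromosome 13, and 3 had a single long loop found in both replicates. The other 4, named after their values were seen, were Myc, Gemin8, Bcl6 and Klf6, each with 2 separate loops of this length from 1 anchor in replicate 2. Gemin8, whose product belongs to the SMN complex that assembles spliceosomal particles, had loops of 350, 1075 and 1625 kb on chromosome X. Bcl6 had loops of 225, 650, 1070 and 1280 kb in replicate 2, and Klf6, a zinc finger factor gene, of 60, 350, 1100 and 1200 kb. Bcl6 also had 1 of 1075 kb in replicate 1, and its 1070 kb loop had a partner there. The long Myc loops had no partner in replicate 1. By the rule used for likeness, on number of loops and longest span alone, the pattern most like that of Myc among the 358 other genes with 3 to 5 loops was that of Eri1, which encodes an exonuclease acting on histone mRNA. Eri1 had loops of 90, 275, 575 and 1750 kb on chromosome 8, all in replicate 2, as Myc did, but with 1 rather than 2 over 1000 kb. The next 4 were the histone genes H2ac13, H2bc13, H2bc14 and H3c10, which share 1 anchor on chromosome 13 and its loops of 325, 550 and 1725 kb, and so count as a single case. The likeness was the absolute log2 ratio of the longest spans, 0.01 for each of the 5 genes.

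Genes of the Myc network, and of factors reported at its blood enhancers, had median longest spans near that of all genes at anchors. Of 15 genes of the Myc network, which form and balance its complexes, 8 had an end in an anchor (53.3%, Wilson interval 30.1 to 75.2%), beside the 22.5% of all protein-coding genes given above. The Myc relatives Mycn and Mycl had loops of 520 kb and of 100 to 175 kb. Max, the shared dimer partner, had 1 of 125 kb, and so did Mxd1, whose product competes with Myc for Max. Mxi1, of the same repressor family, had loops of 125 and 325 kb, and Mga, a large Max-binding protein gene, of 40 and 225 kb. Mlx had 1 of 80 kb, and Zbtb17, which encodes the Myc-binding factor Miz-1, 1 of 125 kb. Mxd3, Mxd4, Mnt, Mlxip, Mlxipl, Mycbp and Mycbp2 had no end in an anchor.

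Of 14 genes of factors reported at blood enhancers of Myc, 7 had an end in an anchor (50%, Wilson interval 26.8 to 73.2%). These were Runx1, Lmo2, Lyl1, Fli1, Meis1, Cebpa and Spi1, all genes of transcription factors or their adaptors in blood cells, with longest spans from 70 kb at Cebpa to 525 kb at Fli1. Smarca4, a remodelling ATPase, Gata2, Tal1, Erg, Gfi1b, Myb and Ldb1 had none. The median of the longest spans was 150 kb for the Myc network genes at anchors and 140 kb for the enhancer factor genes, beside 150 kb for all protein-coding genes at anchors. None of these 15 genes with loops reached 1000 kb, beside 2.43% of all 4851 protein-coding genes at anchors, so their lack of long loops is no result about the lists. Some of the factors were known from earlier results to lie at loops, so their share is not independent evidence.

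**Figure D4:**
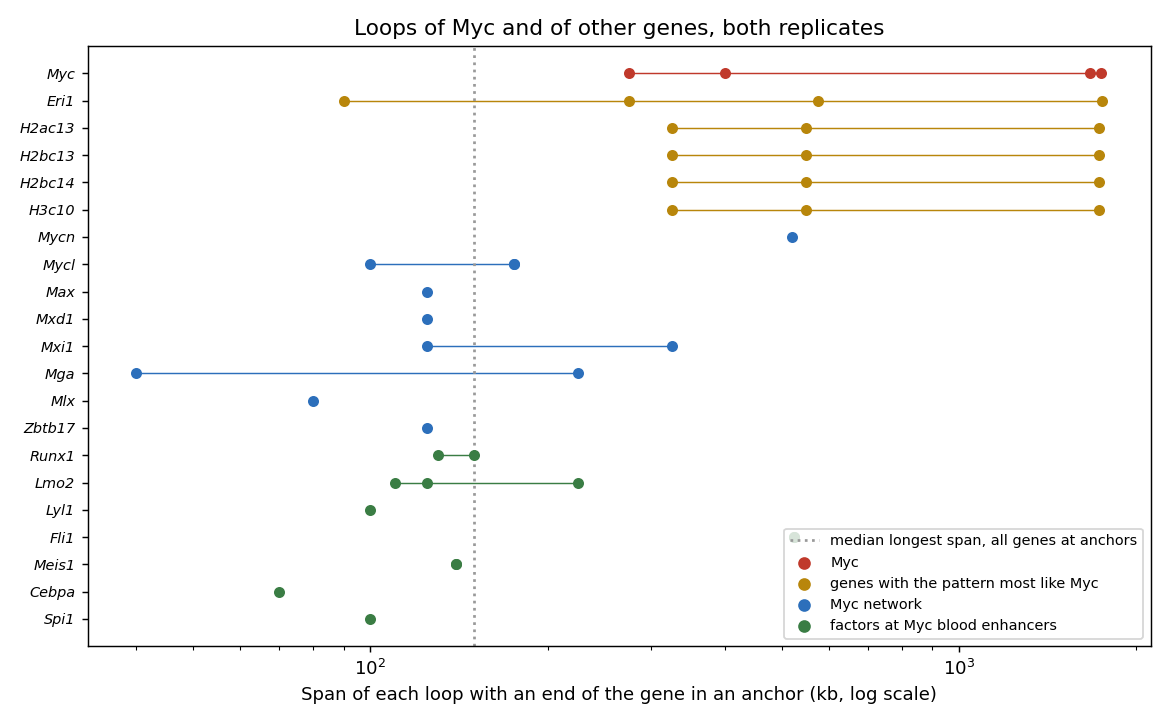
Span in kb (log scale) of each loop with an end of the named gene in an anchor, both replicates, with 1 line per gene. The dotted line is the median of the longest span over all protein-coding genes at anchors, 150 kb. Myc reaches 1740 kb and no gene of the network or factor lists exceeds 525 kb.

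The remaining window loops lay around Cyrib and Asap1. Cyrib encodes a regulator of the GTPase Rac1, and Asap1 an activator of Arf GTPase hydrolysis. A loop of 175 kb joined 63925001 to 63949999, which held an end of Cyrib and of the pseudogene Gsdmcl-ps, to 64100001 to 64124999, inside Asap1. The same Asap1 anchor was joined over 100 kb to 64000001 to 64024999, inside Cyrib. Another loop of 100 kb had both anchors inside Asap1, at 64175001 to 64199999 and 64275001 to 64299999. These 3 loops had n of 115, 108 and 122, above the medians of 68, 88 and 88 for 25 kb loops of similar span. Like the other window loops on 25 kb anchors, they were listed at the medium setting alone. The fourth, of 490 kb, ran from 64130001 to 64139999 inside Asap1 to 64620001 to 64629999, at the long non-coding RNA gene Gm30691 beyond the window, with n = 21 and at both settings. No listed loop joined Myc or its far anchors to Cyrib or Asap1.

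The nearest loops outside the window touched neither gene. On the left a loop of 325 kb ended at 61099999, and on the right the next began at 66025001 and spanned 400 kb. Both were on 25 kb anchors, with n of 57 and 60, and held no annotated gene end at either anchor.

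None of the 9 window loops had a partner in replicate 1, when both anchor midpoints had to lie within 20 kb. A count of 0 of 9 allows a share of up to 33.3%, and 18.2% of all replicate 2 loops had such a partner, so a lower share in the window was not detectable. At the anchor widths of the window loops the share was 22% for 10 kb and 7.03% for 25 kb. The limit treats the 9 loops as independent, though all lie in the stretch without replicate 1 anchors given below. Of all 125 replicate 2 loops of 1000 kb or more, 10 had a partner (8%), all anchor widths counted. On 10 kb anchors 6 of the 18 did, and of the 9 that spanned 1600 kb or more, as the long Myc loops do, 1 did. Replicate 1 listed no anchor between 59849999 and 73060001, a stretch of 13.2 Mb in which replicate 2 listed 27 whole loops. The nearest replicate 1 anchor was 2.14 Mb from Myc. There were 11 stretches at least this long in replicate 1, among 2427 in all. When the genome was divided into 838 bins of 3 Mb, 30.5% held no replicate 1 loop, and among the 59 bins that held 9 replicate 2 loops, as here, 8.47% did. Those 59 bins held 0 to 5 replicate 1 loops with a median of 2. Each of the 9 window loops thus rests on replicate 2 alone, whose list is 4.49 times as long as the other. The part that sequencing depth has in this was not tested.

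By number of loops the window was ordinary in replicate 2, and its long loops were known when it was chosen. It held 9, against a median of 7 per bin and quartiles of 3 and 10. It held 2 loops of 1000 kb or more, which share the Myc anchor, and 3.34% of the bins, this one included, held 2 to 5. The bins were aligned to the window, so this share is a description and not a test. The window is poor in genes, with 7 protein-coding genes against a median of 18 per bin.

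**Figure D5:**
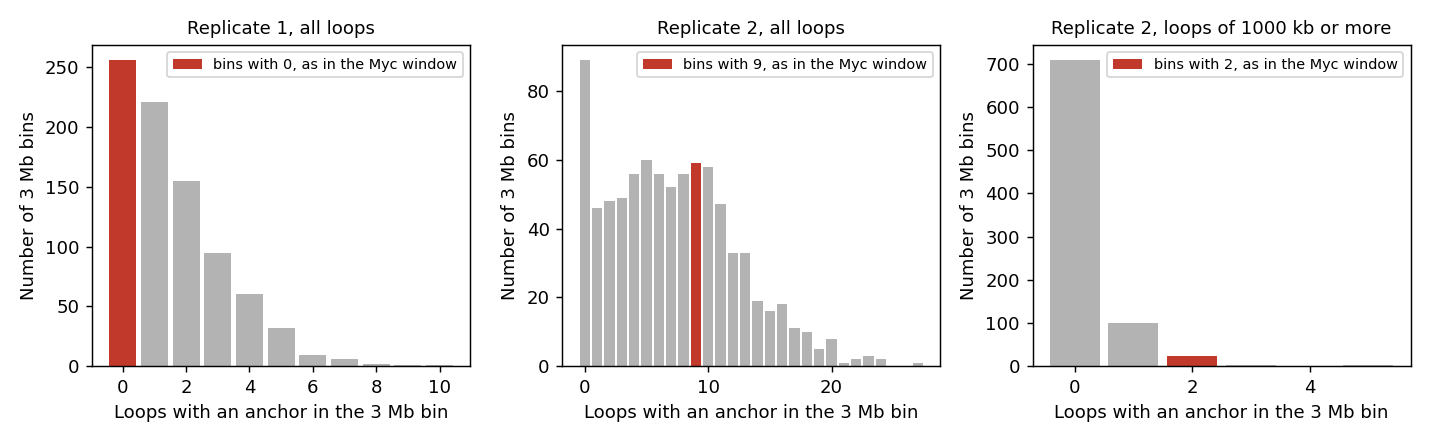
Number of 3 Mb bins (vertical) by the number of loops with an anchor in the bin, for all replicate 1 loops, all replicate 2 loops, and replicate 2 loops of 1000 kb or more. Red bars are the bins with the same number as the Myc window, which has 0, 9 and 2.

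No domain was listed over the window in either replicate. Replicate 2 listed 14 of its 339 domains on chromosome 15, and replicate 1 none of its 3. The nearest ended at 59865000, 2.12 Mb to the left of Myc, and the next began at 80265001, 18.3 Mb to the right. The deposited domains cover 127 Mb in replicate 2 and were at most 950 kb long, shorter than either long Myc loop. The absence of a listed domain therefore does not show that the region lacks domains.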

How the data were processed

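Hi-C was done with a restriction enzyme kit on HPC5 cells. HiC-Pro 2.11.1 and mm10 are named in the submitters' processing notes. The callers of loops and domains were not given in the sources used here. Each deposited loop list belongs to 1 replicate, and gives anchors of 5, 10 or 25 kb, n and qBL. The domain lists were deposited on a grid of 5000 bp, and their starts were moved by a base to count from 1.

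The medium lists were used, with the high lists as an alternative. Span is the distance between anchor midpoints. A gene counted as being at an anchor that contained its left or right end. Positions were those of RefSeq for GRCm38.p6 (49209 genes on 19 autosomes and X, with 345 scaffold entries left out), which has no strand. Wilson intervals and the limit of a count of 0 (3 counts) cover counting error only. Genes named are Myc, Pvt1, those of the window or at its anchors, listed network genes at or away from anchors, and the 5 nearest to Myc in longest span. The factor list was fixed with 1 more gene, which is not reported here, and its share is over the other 14. Members, lists and comparisons were chosen with earlier results of these data known. Bcl6, Styk1, Zfp982, Gemin8 and Klf6 were named after their values were seen. With 1 group of 2 replicates, no test was made. Python 3.11.15, pandas 2.3.3 and scipy 1.17.1 were used, and loop matching was tested on simulated data.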

Additional observations from a re-analysis of the deposited data

How the results depend on the processing

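Every count from the window comes from replicate 2. Leaving out replicate 2 gave 0 window loops, 0 Myc loops, 0 Pvt1 loops and 0 far anchors near the cluster, while leaving out replicate 1 left them at 9, 4, 1 and 2. At the high setting they were 4, 2, 0 and 2, and the share of window loops of 1000 kb or more was 50% in place of 22.2%. These changes follow anchor width. The high list kept all 4 window loops on 10 kb anchors and none of the 5 on 25 kb anchors, so it is no separate check. A loop over the whole window with no anchor in it was not listed (0), and 8 had both anchors inside. The Myc and Pvt1 counts were the same for gene ends within 5 or 10 kb of an anchor and for gene bodies, and the count of far anchors for tolerances of 50 and 200 kb. The count of partners was 0 at each of 4 other matching rules and at the high setting. No other count was possible, so this is no check of the matching rule. Replicate 1 listed no anchor between 59849999 and 73060001 at the medium setting, and no window loop at the high setting. Of the 29 listed network and factor genes 15 were at an anchor, with 7 at the high setting (beside 9.53% of all protein-coding genes), 16 and 18 for ends within 5 and 10 kb (30.6 and 36.5%), and 12 and 9 without replicate 1 and without replicate 2 (19.8 and 6.67%). No paired analysis was possible because there is 1 group of samples. Depth is unknown, which limits what the absence of a loop can show.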
